A study of Mus musculus with 6 samples.

Results

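The genes described here encode the subunits of the mitochondrial respiratory chain and the ATP synthase, compared between dividing muscle precursor cells and fused muscle cells. Members were chosen by name, among probe sets annotated with 1 symbol. For complex I the symbol began with NDUFA, NDUFB, NDUFC, NDUFS or NDUFV, and for complex II it was that of an SDH subunit. For complex III it began with UQCR or was CYC1, for complex IV it began with COX4I, COX5, COX6, COX7 or COX8, and ATP5 and CYCS covered the ATP synthase and cytochrome c. This gave 108 probe sets for 75 genes, of 11938 genes in all with such a probe set. Of the 75, 66 encode subunits or cytochrome c itself. The other 9 are 5 complex I assembly factors (NDUFAF), the ATPase inhibitor ATP5IF1, the supercomplex factor COX7A2L, the pseudogene ATP5MC2P1 and the antisense RNA NDUFB2-AS1. The rule reads gene names alone.

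The RNA came, by the labels, from C2C12, a mouse line of muscle precursor cells whose dividing myoblasts leave the cell cycle and fuse into myotubes. Total RNA was hybridised to 6 HG-U133A arrays, 3 of myoblasts and 3 of myotubes. The myotubes had been kept in 2.5% horse serum, and the myoblast medium and the time in differentiation are not given in the sources used here. No genotype change or drug is named for either group. One myoblast array, number 3, carries no cell stage in its title and was placed by its description. That description speaks of the first 2 samples only, so by the labels its group is less certain. Across probe sets this array correlated at r = 0.988 with myoblast array 2. The run records number the 3 myoblast arrays otherwise than the titles, which were followed here: the record of array 1 gives the number 3 and no cell stage, and those of arrays 2 and 3 give myoblast 1 and 2. The probes are of human design, the organism label says mouse, and which species the RNA came from is unsettled. Gene names are those of the human genes on the array. Whether a group's arrays stand for separate cultures is not in the labels. P-values therefore rest on the spread between arrays alone, and that spread may be technical.

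The respiratory chain is a set of protein complexes in the inner mitochondrial membrane. Complex I takes electrons from NADH and complex II takes them from succinate. Coenzyme Q carries them to complex III, cytochrome c carries them on to complex IV, and complex IV passes them to oxygen. The protons pumped on the way drive the rotor of the ATP synthase. Muscle is rich in mitochondria, some complex IV subunits have forms specific to heart and skeletal muscle, and differentiating muscle cells are known to rely more on oxidative phosphorylation than dividing ones. Cytochrome c also activates caspases when it leaves the mitochondrion.

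Myotube markers and dividing-cell markers followed the labels. Of 8 tested myotube genes 7 rose. The summed signal of the 10 on the list was 6412, 819 and 1066 in myoblast arrays 1 to 3, highest in array 1, and 29750 to 31640 in myotubes. Of 6 dividing-cell genes 5 fell, from sums of 26960 to 30410 down to 3716 to 5882. All 6 fibroblast genes also rose, from sums of 49420, 25550 and 24020 in myoblast arrays 1 to 3 up to 150900 to 158200 in myotubes. The adipocyte genes ADIPOQ, PLIN1 and FABP4 (sums of 599 to 1064) and the macrophage genes PTPRC and CD14 (35.3 to 454) were too dim to be tested. Of 3 endothelial genes 1 was tested and not called, with sums of 786 to 1072 in myoblasts and 1665 to 2453 in myotubes. The part of any of these shifts in the values below was not tested. In RNA from whole cultures, fewer cells of a type and less RNA per cell cannot be told apart. Myoblast arrays 2 and 3 correlated at r = 0.988 across probe sets and the other pairs within a group at 0.889 to 0.912. Myotube array 3 correlated at 0.920 and 0.924 with myoblast arrays 2 and 3. Myoblast array 1 correlated at 0.908 and 0.912 with myoblast arrays 2 and 3, and at 0.879, 0.876 and 0.909 with myotube arrays 1 to 3. The geometric mean of the spike-in controls was 48120, 3539 and 4275 on the myoblast arrays and 71440, 33500 and 12320 on the myotube arrays. All arrays had been scaled to about the same trimmed mean, so each signal is a level relative to the rest of the sample. Each group was scanned on a day of its own, so scan day and group cannot be told apart, and no chip lot held arrays of both groups. Myoblast array 1 shared a run of laboratory codes, called a laboratory series here, with the 3 myotube arrays, and myoblast arrays 2 and 3 formed another.

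Of the 75 genes, 70 passed the filter and were tested. The 5 that did not were COX7A1, NDUFAF5, NDUFAF7, ATP5MC2P1 and NDUFB2-AS1. Signals were bright: the mean over 6 arrays ranged from 926.9 to 26310 with a median of 7622, and 67 of the 70 lay above the highest unspiked control probe set on all 6 arrays. That control, between 252 and 1040 by array, marks the level below which a signal was not told from background. Ranked by brightness, 57 of the 70 fell in the brightest 20% of all tested genes. A signal depends on the probe set as well as on the transcript, so signals of different genes were not compared as levels.

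Few respiratory chain and ATP synthase genes passed the test, and all that did were lower in myotubes. Of the 70 tested genes 7 fell in myotubes, none rose, and 63 did not pass (limma, Benjamini-Hochberg adjusted p below 0.05 over 8141 genes). Beside these 7 of 70, 6.87% of all tested genes were lower and 5.93% higher. In this brightest 20%, where 15.5% of all genes were lower and 9.09% higher, 6 of the 57 members were lower and none higher. At an unadjusted p under 0.05, 18 members were lower and 4 higher, beside 15.4% and 16.6% of all genes. Within the brightest 20%, 14 of the 57 members were lower and 3 higher at that level, beside 473 and 272 of all 1629 genes there. The log2 change, taken on log2(signal + 197), had a median of -0.18 over the 70 genes and of 0.11 over all tested genes, and it was negative for 47 of the 70 (67.14%) and for 43.8% of all tested genes. All genes of the brightest 20% had a median of -0.12, and the members among them -0.17. Changes were negative for 57.09% of the former and 64.91% of the latter. The 95% interval lay within a 2-fold change either way for 52 of the 70 and for 3039 of all 8141 tested genes. Within the brightest 20% it did so for 45 of the 57 members and 948 of all 1629 genes. With the laboratory series as a block none of the 70 was called by limma (13 lower and 1 higher at an unadjusted p under 0.05), and with chip lot as a random block 1 was, CYCS. The counts also depend on single arrays. Without myoblast array 1, 13 members were lower and 5 higher, beside 1059 and 1255 of all 8141 genes. Without myotube array 3, 9 were lower and 0 higher, beside 663 and 534. When any of the other 4 arrays was left out 1 member was lower, beside 216 to 260 of all genes. Of all genes 183 to 216 were higher there, and of the members 1, in the absence of myotube array 1.

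**Figure D1:**
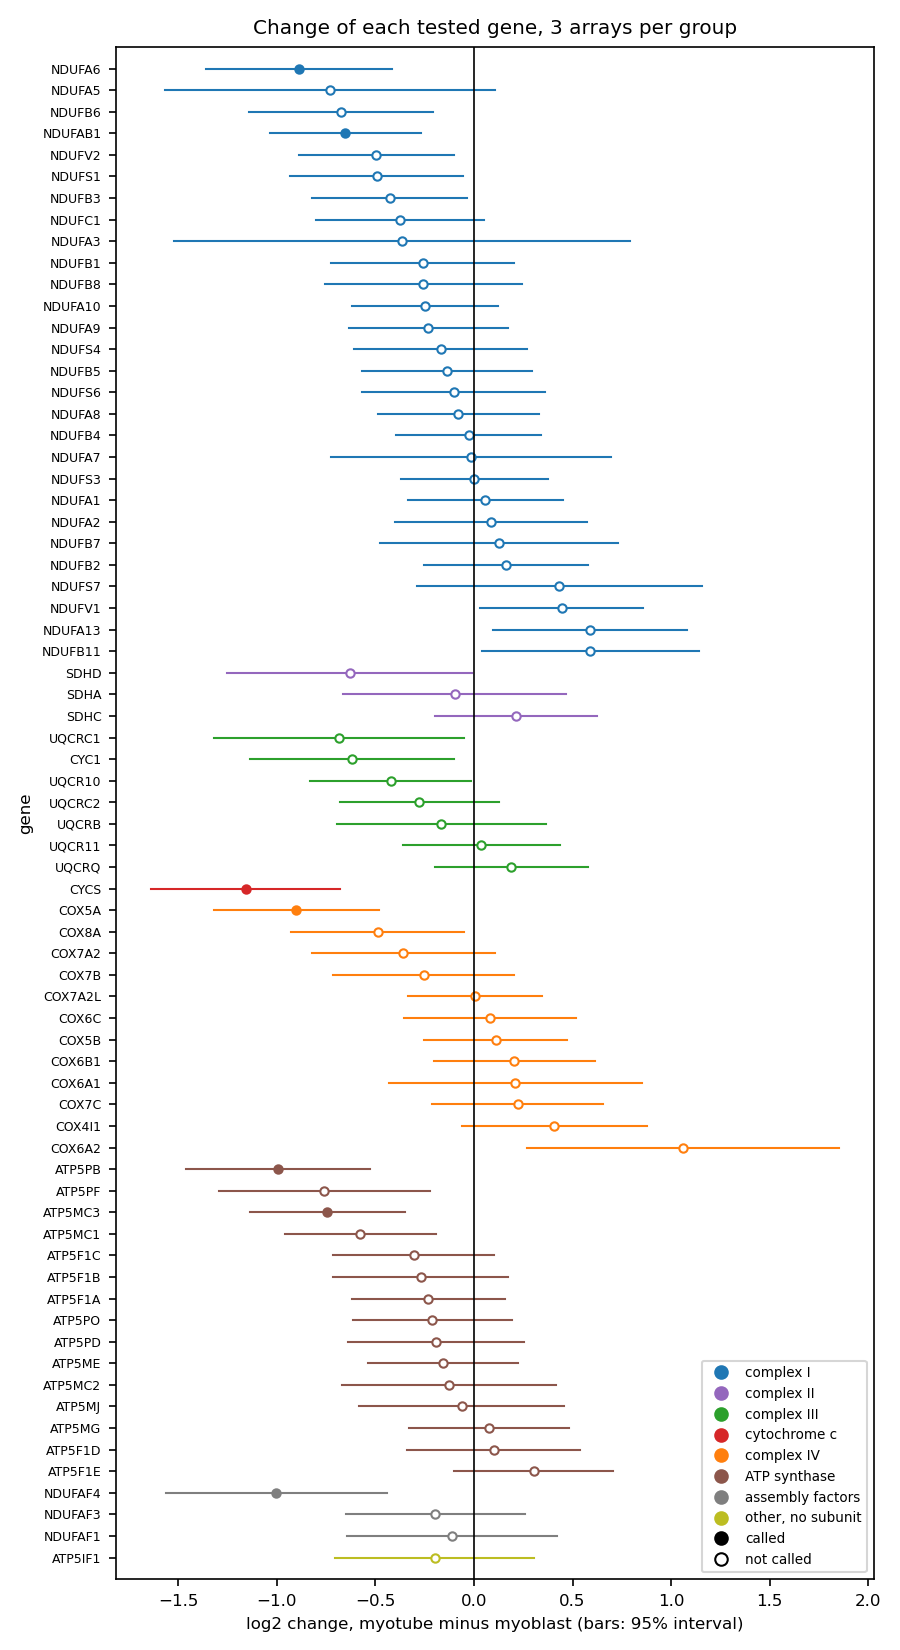
Log2 change of each tested gene, myotube minus myoblast, by complex; points are limma estimates from 3 arrays per group, bars their 95% intervals, and filled points passed the adjusted threshold. The 7 filled points all lie below 0, between -1.16 for CYCS and -0.65 for NDUFAB1, and most other intervals cross 0.

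CYCS, the electron carrier between complexes III and IV, had the largest fall of the 70. Its signals were 14920, 20240 and 19960 in myoblasts and 6079, 8786 and 9716 in myotubes, in the order of the array numbers, as in all sentences below. Every myotube value lay below every myoblast value. The log2 change was -1.16 ± 0.22 (SE), a 2.23-fold fall (limma adjusted p = 0.00856). CYCS alone of the 7 kept its call on leaving out any 1 array, with adjusted p-values up to 0.0427. A fit that takes the laboratory series as a block is called the series-block fit below. In it the change comes from myoblast array 1 and the 3 myotube arrays. Myoblast array 1 has no other myoblast array in its series, so its spread is taken from the other arrays. For CYCS the change in that fit was -0.88 ± 0.26 (limma adjusted p = 0.118).

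NDUFAF4, a complex I assembly factor, and ATP5PB, the b subunit in the peripheral stalk of the ATP synthase, had the next lowest changes. NDUFAF4 gave 2429, 3048 and 2395 in myoblasts and 867, 1259 and 1571 in myotubes, a log2 change of -1.004 ± 0.252 (adjusted p = 0.0285). ATP5PB gave 15090, 20170 and 19130 in myoblasts and 7281, 8501 and 11470 in myotubes, a change of -0.996 ± 0.209 (adjusted p = 0.0142). In both, the groups did not overlap, and the highest myotube signal was that of myotube array 3.

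COX5A is a nuclear-encoded subunit of complex IV on the matrix side of the membrane. Its signals were 8536, 12160 and 12890 in myoblasts and 5967, 5563 and 5901 in myotubes. The myotube values lay close together, and myoblast array 1 stood between them and the other myoblast arrays. The change was -0.90 ± 0.19 (adjusted p = 0.0135), and -0.54 ± 0.18 in the series-block fit (adjusted p = 0.163).

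NDUFA6 is an accessory subunit of complex I, and NDUFAB1 is both a complex I subunit and the mitochondrial acyl carrier protein. NDUFA6 went from 6620, 7438 and 8110 in myoblasts to 2884, 4016 and 5063 in myotubes (-0.89 ± 0.21, adjusted p = 0.0233). NDUFAB1 went from 12770, 14290 and 14540 to 7438, 9014 and 9914 (-0.65 ± 0.17, adjusted p = 0.0336). Neither pair of groups overlapped. The fall of NDUFA6 rests on 1 of its 2 probe sets, and the mean of both gave -0.27 (adjusted p = 0.281). The dimmer one gave 1763, 2022 and 2217 in myoblasts and 2893, 2576 and 2343 in myotubes (0.35 ± 0.20), higher in every myotube array.

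ATP5MC3 encodes the c subunit, whose copies form the rotor ring of the ATP synthase. It gave 17310, 18030 and 18210 in myoblasts and 10340, 9099 and 12550 in myotubes. The myoblast signals were nearly equal and all above the myotube signals, and the change was -0.74 ± 0.18 (adjusted p = 0.0225). Its second probe set gave -0.69. NDUFAF4, ATP5PB, COX5A, NDUFA6, ATP5MC3 and NDUFAB1 each lost their call when any of myoblast arrays 2 and 3 and myotube arrays 1 and 2 was omitted (limma gave adjusted p-values up to 0.156), and kept it without myoblast array 1 or myotube array 3. In the series-block fit limma called 0 of the 70, beside 1.39% of all tested genes lower and 1.84% higher. In that fit 13 members were lower and 1 higher at an unadjusted p under 0.05, beside 8.59% and 9.70% of all genes. Within the brightest 20%, 10 of the 57 members were lower and 1 higher, beside 307 and 192 of all 1629 genes there. The changes of NDUFAF4, ATP5PB, NDUFA6, ATP5MC3 and NDUFAB1 in that fit were -0.91, -0.74, -0.74, -0.70 and -0.54.

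Complex I had the most tested genes, 28. Besides NDUFA6 and NDUFAB1 none passed, and the median change was -0.15, with 19 negative and 9 positive. The core subunits that carry the flavin and the iron-sulphur clusters, or sit beside them, lay on both sides of 0. NDUFV1, which holds the NADH site, had a change of 0.45 ± 0.19 and NDUFV2 one of -0.50 ± 0.18. NDUFS1, NDUFS3 and NDUFS7 had changes of -0.49 ± 0.20, 0.00 ± 0.17 and 0.43 ± 0.33. None of these passed the threshold, and that of NDUFS7 was -0.36 in the series-block fit.

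The brightest probe sets of complex I were those of NDUFB2, NDUFB4 and NDUFAB1. NDUFB2 and NDUFB4, accessory subunits of the membrane arm, had changes of 0.16 ± 0.19 and -0.03 ± 0.17. The highest changes of the complex were those of NDUFB11, another membrane arm subunit, at 0.59 ± 0.25 (adjusted p = 0.133) and of NDUFA13, an accessory subunit named after its values were seen, at 0.59 ± 0.22 (adjusted p = 0.103). NDUFA13 gave 5963, 6293 and 7637 in myoblasts and 7169, 11130 and 12570 in myotubes, where myotube array 1 lay among the myoblast arrays, and its change was 0.73 in the series-block fit (adjusted p = 0.253). NDUFA13 passed the threshold in 3 of 21 other settings. The signals of NDUFB11 were 6408, 3194 and 3816 in myoblasts and 7649, 6458 and 5679 in myotubes, where myoblast array 1 lay among the myotube arrays. In the series-block fit the change of NDUFB11 was 0.03, and without myoblast array 1 it was 0.87 (adjusted p = 0.0115). NDUFA3, chosen after its values were seen, varied most: its signals were 3354, 2838 and 2441 in myoblasts and 3566, 623 and 4109 in myotubes, and the low array was myotube 2.

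Of the 5 assembly factors of complex I, which build the complex but are not part of it, 3 were tested. Beside the fall of NDUFAF4 above, NDUFAF3 had a change of -0.20 ± 0.20 and NDUFAF1 one of -0.11 ± 0.24. NDUFAF5 did not exceed the unspiked controls on any array and NDUFAF7 did so on 1.

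Complex II, succinate dehydrogenase, is also an enzyme of the citric acid cycle. No probe set with a single symbol carried SDHB, and of SDHA, SDHC and SDHD none passed. SDHA, the flavoprotein, gave 4843, 3166 and 2762 in myoblasts and 3783, 2377 and 3796 in myotubes (-0.10 ± 0.26). SDHC, a membrane anchor, gave 7080, 6293 and 5417 against 8443, 6022 and 7467 (0.21 ± 0.19) on its brightest probe set. The dimmer probe sets of SDHC gave 0.20, -0.41 and -0.07. SDHD, the other anchor, gave 2088, 4041 and 4643 in myoblasts and 2492, 1945 and 1992 in myotubes (-0.63 ± 0.28, adjusted p = 0.151). In all 3 genes the groups overlapped. For SDHD the overlap came from myoblast array 1. Its change was 0.03 in the series-block fit and -0.96 without that array (adjusted p = 0.00986).

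Complex III had 7 tested genes and none passed. The median change was -0.28, with 5 negative and 2 positive. UQCRC1, a core subunit of the matrix side, had the lowest change, -0.69 ± 0.29 (adjusted p = 0.13), from 7002, 7794 and 7746 in myoblasts to 2655, 5368 and 6714 in myotubes. These groups did not overlap, and the spread within the myotubes was wide. Next came CYC1, the cytochrome c1 subunit, at -0.62 ± 0.23. UQCR10 and UQCRB, small subunits of the complex, had changes of -0.42 ± 0.18 and -0.17 ± 0.24, and UQCRQ, another, had the highest at 0.19 ± 0.17.

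Complex IV had 12 tested genes, of which 1, COX5A, fell. Unlike the other complexes its median was above 0, at 0.10, with 8 positive and 4 negative. In the series-block fit the median was -0.03. COX7A2L, not a subunit, is counted here, with a change of 0.005 among the positive ones. ATP5IF1, also not a subunit, is not counted with the ATP synthase. The difference in medians between complexes was not tested. COX8A, a small subunit, gave 25700, 19520 and 20350 in myoblasts and 16050, 13010 and 17540 in myotubes (-0.49 ± 0.20, adjusted p = 0.123), with no overlap. The ATP synthase had 15 tested genes, of which ATP5PB and ATP5MC3 fell, and a median of -0.21 with 12 negative and 3 positive.

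Within the ATP synthase the changes followed no single subcomplex. The catalytic head subunits ATP5F1A and ATP5F1B had changes of -0.23 ± 0.17 and -0.27 ± 0.20, and the shaft subunit ATP5F1C one of -0.31 ± 0.18. ATP5F1D and ATP5F1E, the small subunits of the shaft, lay at 0.10 ± 0.20 and 0.30 ± 0.18. ATP5F1E gave 22080, 18720 and 19380 in myoblasts and 23130, 26760 and 24440 in myotubes, with no overlap, but its change did not pass (adjusted p = 0.27). Of the stalk genes, ATP5PF and ATP5PB lay lowest, at -0.76 ± 0.24 (adjusted p = 0.0647) and the value above, and ATP5PO and ATP5PD were at -0.21 ± 0.18 and -0.19 ± 0.20. The membrane subunits ATP5ME, ATP5MJ and ATP5MG had changes of -0.16, -0.06 and 0.08 on their brightest probe sets. The other 3 probe sets of ATP5MG gave -0.16, -0.41 and -0.70, and the second one of ATP5ME gave 0.18. ATP5IF1, which stops the enzyme from hydrolysing ATP, had a change of -0.20 ± 0.23.

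**Figure D2:**
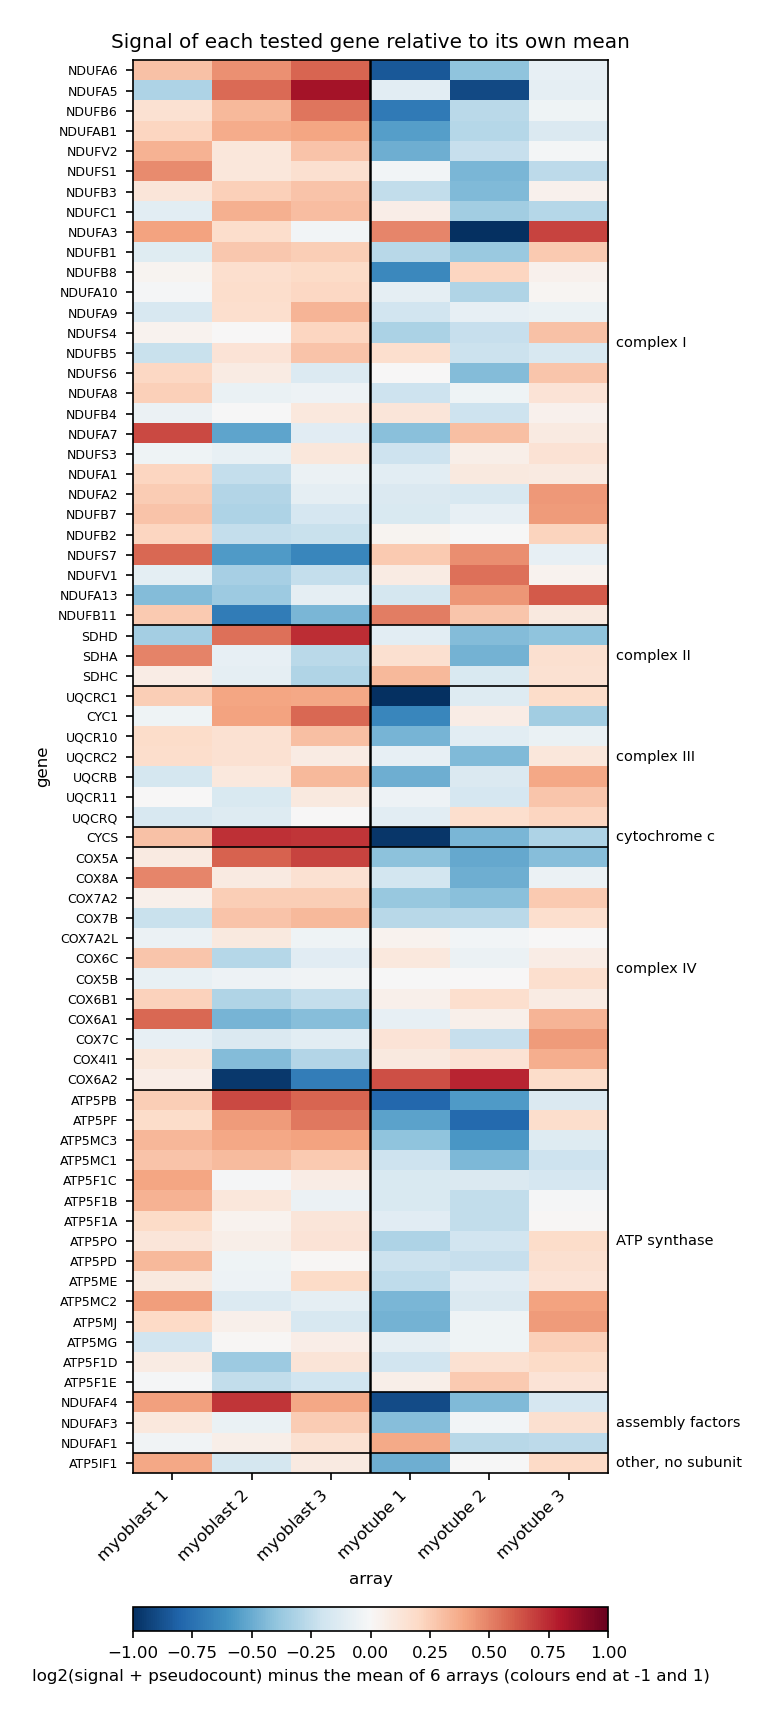
Signal of each tested gene on each array as log2(signal + 197) minus the gene's mean over 6 arrays, ordered by complex and then by change; red is above and blue below that mean, and colours end at -1 and 1. CYCS, COX5A, ATP5PB and NDUFAF4 are red in all myoblast arrays and blue in all myotube arrays, while many rows, SDHD and COX6A1 among them, show myoblast array 1 unlike the other 2 myoblast arrays.

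Several subunits are made from more than 1 gene, and for some of these one form is typical of heart and skeletal muscle. COX6A2 is the muscle form of subunit VIa and COX6A1 the general form. COX6A2 gave 877, 329 and 438 in myoblasts and 1405, 1543 and 969 in myotubes, the highest change of the 70 at 1.06 ± 0.36, and did not pass the threshold (adjusted p = 0.0768). Its groups did not overlap, but its signal on myoblast array 1 lay below the highest unspiked control of that array. In the series-block fit its change was 0.46 (adjusted p = 0.612), and without myoblast array 1 it was 1.36 (adjusted p = 0.0155). COX6A1 gave 36070, 17390 and 17920 in myoblasts and 22810, 25000 and 30650 in myotubes (0.21 ± 0.29). Myoblast array 1 held its highest signal, and the change was -0.47 in the series-block fit.

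COX7A1, the muscle form of subunit VIIa, was too dim for the test. Its signals were 290, 82.2 and 134 in myoblasts and 575, 1152 and 575 in myotubes. The groups did not overlap, but only myotube arrays 2 and 3 exceeded the unspiked controls of their own arrays, so no fold is given. With no filter on dim probe sets COX7A1 was not called either (limma adjusted p = 0.0647). COX7A2, the general form, had a change of -0.36 ± 0.21. COX7A2L, a related protein that joins complexes III and IV, was nearly level: 9943, 11100 and 10040 in myoblasts and 10620, 10140 and 10390 in myotubes (0.00 ± 0.15).

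COX4I1 and COX6B1 are the general forms of subunits IV and VIb, and neither COX4I2 nor COX6B2 was among the members. COX4I1 gave 26560, 18110 and 19950 in myoblasts and 26310, 27150 and 31590 in myotubes (0.41 ± 0.21, adjusted p = 0.208), where myoblast array 1 lay among the myotube arrays. In the series-block fit the change of COX4I1 was 0.09, and without myoblast array 1 it was 0.57 (adjusted p = 0.0250). COX6B1 had a change of 0.20 ± 0.18, which was -0.13 in the series-block fit. The other c subunit genes, which encode the same mature protein as ATP5MC3, were not called. ATP5MC1 gave 4115, 4223 and 4060 in myoblasts and 2873, 2392 and 2881 in myotubes, close values within each group and no overlap (-0.58 ± 0.17, adjusted p = 0.0529), and it passed the threshold in 5 of the 21 other settings (adjusted p from 0.0421 to 0.0483). ATP5MC2 gave 13930, 9417 and 9760 against 7516, 9383 and 13810 (-0.13 ± 0.24), with wide overlap.

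**Figure D3:**
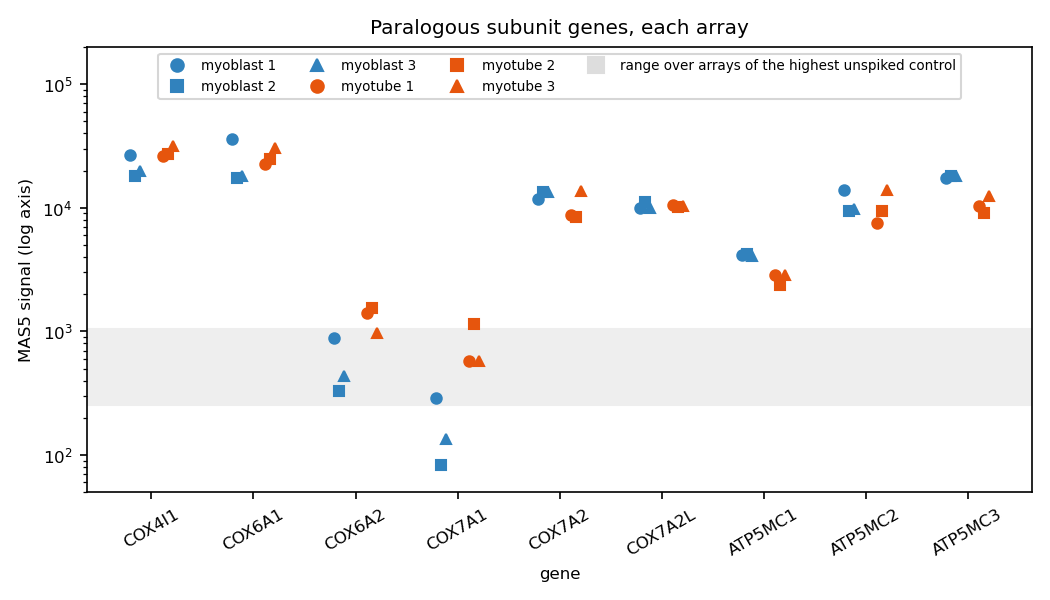
Deposited signal on each array (log axis) for subunit genes with related forms; colour marks the group, marker shape the array number, and the grey band spans the highest unspiked control of the 6 arrays. Myotube signals of COX6A2 and COX7A1 lie above their myoblast signals, within or near the band, and ATP5MC1 and ATP5MC3 separate the other way well above it.

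Where a gene had more than 1 tested probe set, its probe sets did not always move alike. Of the 16 members with more than 1, 9 had the same sign on all probe sets and 6 spread over more than 0.5 on the log2 scale. The widest, NDUFA6, is described above. Of the others COX7C, COX5B and NDUFB8 were chosen after their values were seen. NDUFB8 ranged from -0.26 to 0.45, ATP5MG from -0.70 to 0.08 and SDHC from -0.41 to 0.21. COX7C, a small subunit of complex IV, had changes from -0.04 to 0.82, and its dimmest probe set, with 1729, 2071 and 2098 in myoblasts and 3667, 3825 and 3379 in myotubes, was called higher in a fit over all 13297 probe sets (limma adjusted p = 0.0223), where 4.85% of all probe sets were higher and 6.26% lower. Its brightest, which stands for the gene, gave 0.22 ± 0.19. COX5B, another small subunit of complex IV, ranged from 0.11 on the brightest probe set to 1.26 on the dimmest, where 2224 on myotube array 1 stood apart from 260 and 776 on the other 2. Of the probe sets standing for the 70 tested genes, 7 have names ending in x_at and 28 in s_at, marking probes that can bind related transcripts, so signals of gene families and pseudogenes may mix.

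Among the myotubes, array 3 stood nearest to the myoblasts for these genes. The median deviation of the 70 genes from their own means was 0.17, 0.06 and 0.12 in the myoblasts and -0.17, -0.16 and 0.10 in the myotubes. For all tested genes these medians lay between -0.08 and 0.08. Myotube array 3 gave the highest signal of the 3 myotube arrays for 49 of the 70 genes (70.0%), beside 32.96% of all tested genes. Its spike-in signal was the lowest of the myotube arrays, 12320 against 71440 and 33500; the part of this in the deviations was not tested. Without myotube array 3 the median change of the members was -0.31. Values of 18 members lay lower in every myotube array than in any myoblast array and those of 4 lay higher, beside 16.2% and 18.5% of all tested genes, and 28.7% and 17.6% of the brightest 20%.

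**Figure D4:**
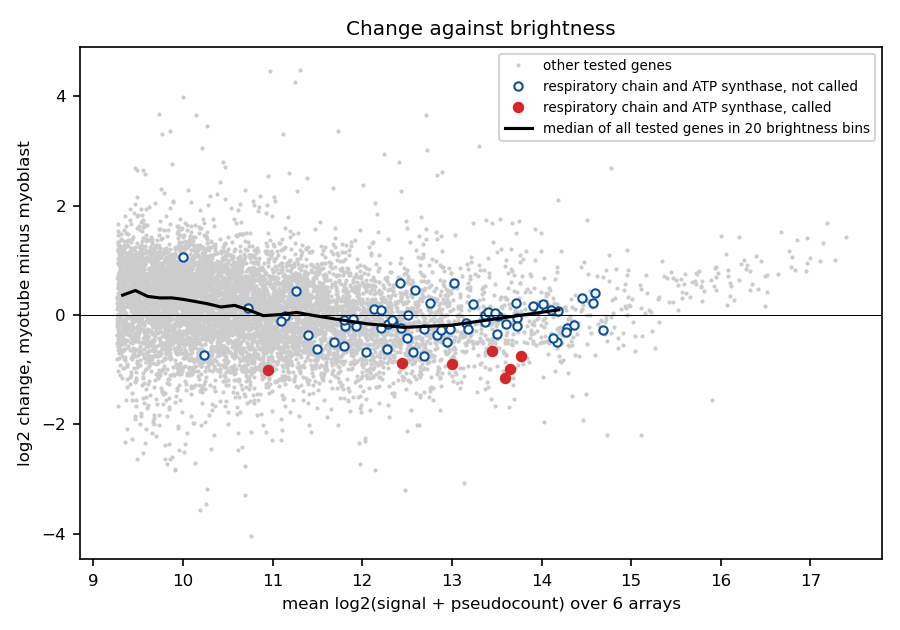
Log2 change against mean log2(signal + 197) for all 8141 tested genes (grey), with respiratory chain and ATP synthase genes as open blue (not called) and filled red circles (called); the black line is the median of all tested genes in 20 bins of brightness. Most members lie to the right, where that line is at or below 0, and 6 of the 7 called genes are in the brightest 20%.

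Other large mitochondrial and cellular complexes give a scale for these counts. Of 49 tested mitochondrial ribosomal protein genes, which build the machine that translates the chain subunits encoded in mitochondrial DNA, 11 were lower and none higher, with a median of -0.38. Of 32 tested proteasome subunit genes 7 were lower and none higher, with a median of -0.35. Whether these shares differ from that of the respiratory chain was not tested. In the series-block fit 1 gene of the former was lower and none of the latter.

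The promoters of many respiratory chain genes hold sites for NRF1, for ETS factors such as GABP and for YY1, which are known regulators of nuclear genes for mitochondria. Mouse windows from 250 bases before to 50 bases after the start of the transcript (RefSeq, GRCm38.p6) were found by symbol for 61 of the 75 genes, the labels giving mouse. The motifs searched on both strands were GCGCA and GCGC with any 1 base between them for NRF1, CCGGAAG for ETS or GABP and AANATGGCG for YY1. An exact NRF1 match was found in 18 of the 61 (29.5%) and in 7.17% of 17491 protein-coding genes of the table. For ETS or GABP the counts were 14 (23.0%) and 12.9%, and for YY1 10 (16.4%) and 3.64%. At least 1 of the 3 motifs was in 35 of the 61 (57.4%) and in 20.9% of all. By complex, NRF1 matches stood in 6 of 13 ATP synthase genes, 5 of 26 complex I genes and 1 of 10 complex IV genes.

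Of the 7 genes that fell, NDUFAF4, NDUFA6 and ATP5MC3 had an exact NRF1 match and the other 4 had no exact match to any of the 3 motifs. Among tested genes that did not pass, 14 of 51 (27.5%) had an NRF1 match. The 250 bases before the start are shown for the gene with the largest fall, for NDUFAF4, whose match lies before the start, and for COX6A1, which was not called and holds 2 NRF1 matches and 1 ETS match. For NDUFA6 and ATP5MC3 (mouse symbol Atp5g3), where the match lies just after the start, 30 bases around it are shown. Capitals mark the matches, and each sequence reads in the direction of the gene.
Ndufaf4, chr4:24897833-24898082, + strand: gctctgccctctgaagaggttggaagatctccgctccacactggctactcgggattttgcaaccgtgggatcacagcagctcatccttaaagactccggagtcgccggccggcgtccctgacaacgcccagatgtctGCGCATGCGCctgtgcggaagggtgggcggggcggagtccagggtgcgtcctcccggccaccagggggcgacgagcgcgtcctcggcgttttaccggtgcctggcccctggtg
Cycs, chr6:50566570-50566819, - strand: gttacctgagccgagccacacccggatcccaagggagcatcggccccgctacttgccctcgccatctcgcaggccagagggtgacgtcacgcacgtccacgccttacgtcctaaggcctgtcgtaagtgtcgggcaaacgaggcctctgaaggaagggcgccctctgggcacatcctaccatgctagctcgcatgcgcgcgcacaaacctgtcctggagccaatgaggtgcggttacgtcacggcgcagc
Cox6a1, chr5:115348959-115349208, - strand: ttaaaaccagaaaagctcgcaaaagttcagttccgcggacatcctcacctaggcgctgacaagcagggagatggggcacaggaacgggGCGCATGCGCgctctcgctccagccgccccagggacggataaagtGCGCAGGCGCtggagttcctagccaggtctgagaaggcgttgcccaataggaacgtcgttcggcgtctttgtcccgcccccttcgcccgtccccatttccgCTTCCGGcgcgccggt
Ndufa6, chr15:82354249-82354278, - strand: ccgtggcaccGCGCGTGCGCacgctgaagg
Atp5g3, chr2:73911295-73911324, - strand: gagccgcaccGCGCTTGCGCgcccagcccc
The match in Ndufaf4 begins 113 bases before the start. In Ndufa6 it begins at transcribed base 24 and in Atp5g3 at transcribed base 13. An exact search leaves out near matches, such as tcgcatgcgc in Cycs, which differs from the NRF1 motif in its first letter only. A match describes these letters only, and no binding was measured.

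Of the 7 other mitochondrial lists, 5 had called genes that were lower and none higher, fatty acid oxidation had 1 higher and none lower, and coenzyme Q synthesis had none. Of all tested genes, 6.87% were lower and 5.93% higher, and of the brightest genes as ranked above 15.5% and 9.09%. Whether the shares of the lists differ from these was not tested. Of 22 tested genes of mitochondrial import and the inner membrane proteases 4 were lower and none higher (median -0.33). They included HSPE1 and HSPD1, the co-chaperonin and chaperonin that fold imported proteins, at -1.47 ± 0.18 and -1.06 ± 0.18, and TOMM34 at -0.79 ± 0.16. HSPD1 gave 31370, 27350 and 28040 in myoblasts and 12450, 13110 and 15880 in myotubes. HSPE1 and HSPD1 kept their calls on leaving out any 1 array. They also kept them in the series-block fit (limma adjusted p = 0.0246 and 0.0197), where the myoblast side rests on myoblast array 1. TOMM34 lost its call without myoblast array 2 or 3 or myotube array 2 (adjusted p up to 0.0723).

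The carriers that exchange ATP for ADP and bring in phosphate, and the porins of the outer membrane, are the route by which the product of the ATP synthase leaves. Of 7 tested genes of this list, which also holds ATP5IF1, 2 were lower and none higher (median -0.53). The adenine nucleotide carrier SLC25A5 gave 24160, 28830 and 24700 in myoblasts and 12170, 12990 and 12650 in myotubes, with a change of -1.02 ± 0.17 (adjusted p = 0.00508). SLC25A5 was still called in the series-block fit (-0.93, adjusted p = 0.032) and the porin VDAC3 (-1.16 ± 0.21) was not (-1.05, adjusted p = 0.0926). Both kept their calls on leaving out any 1 array.

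In the citric acid cycle and pyruvate dehydrogenase, which supply NADH and succinate, all 14 tested genes had negative changes (median -0.36). Changes were negative for 43.8% of all tested genes and for 57.09% of the brightest ones as ranked above. Of the 14 genes 2 were called. These were SUCLG2 and SUCLG1, subunits of succinyl-CoA ligase, at -1.15 ± 0.30 and -0.73 ± 0.21. Among 12 tested genes of fatty acid oxidation ETFB, which passes electrons from that pathway towards coenzyme Q, was higher at 0.72 ± 0.19, and the median was -0.11. Of 13 tested regulators of mitochondrial biogenesis and mitochondrial DNA 2 were lower, SSBP1, which binds single-stranded mitochondrial DNA, at -0.81 ± 0.23 and YY1 at -0.68 ± 0.19 (median -0.49). Of 18 other tested assembly factors LRPPRC, which stabilises mitochondrial messenger RNAs, and COX11, which delivers copper to complex IV, were lower at -1.30 ± 0.26 and -1.29 ± 0.31 (median -0.06). None of 8 tested coenzyme Q genes was called by limma (median -0.10). None of SUCLG2, SUCLG1, ETFB, SSBP1, YY1, LRPPRC and COX11 was called in the series-block fit, where the changes of SUCLG2, SUCLG1, SSBP1, YY1, LRPPRC and COX11 were -0.70, -0.49, -0.54, -0.34, -0.86 and -0.73. All 7 lost their call when at least 1 array was left out: LRPPRC only without myotube array 2 (adjusted p = 0.0574), YY1 without any array but myoblast array 1, and the others without any of myoblast arrays 2 and 3 and myotube arrays 1 and 2 (adjusted p up to 0.211). When probe sets were averaged per gene and the brightest was not picked, COX11 (-0.48, adjusted p = 0.272), YY1 (-0.38, adjusted p = 0.170) and VDAC3 (-0.52, adjusted p = 0.0672) were not called.

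**Figure D5:**
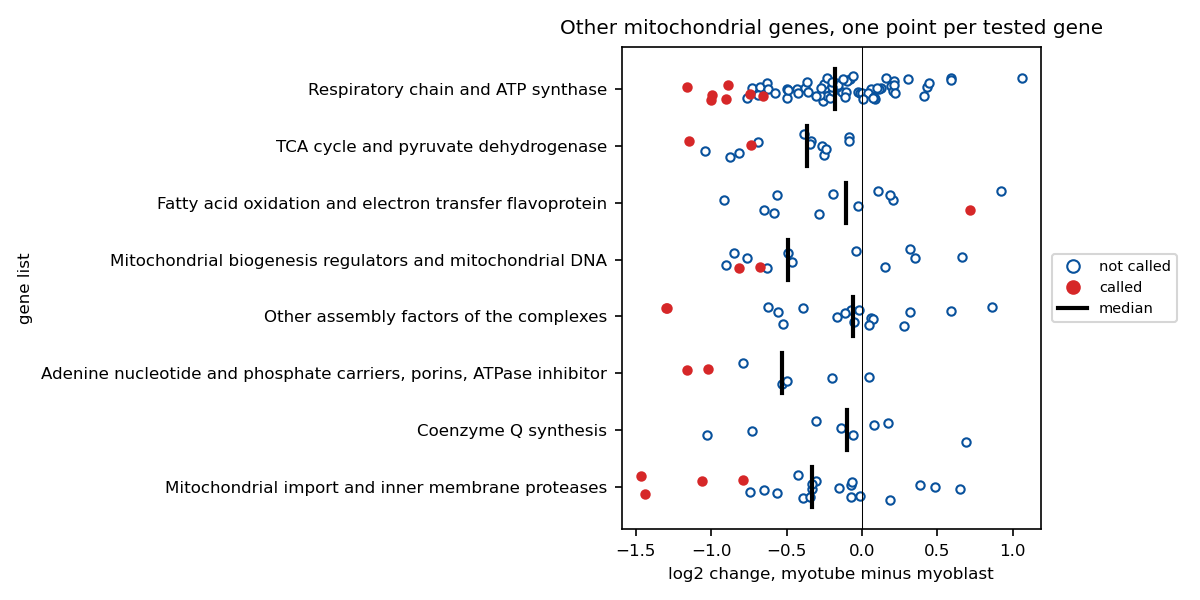
Log2 change of each tested gene in the respiratory chain and ATP synthase and in 7 other mitochondrial lists; each point is 1 gene, filled points passed the adjusted threshold, black bars are medians, and the vertical spread within a row has no meaning. The medians of all 8 rows lie below 0, and ETFB is the only filled point above 0.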

How the data were processed

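Total RNA had been labelled with biotin and hybridised to 6 HG-U133A arrays. The deposited table holds an intensity on a linear scale, the MAS5 signal of each probe set, per the submitters' processing notes, which give no version here. Trimmed means alike on all arrays show that the authors scaled it. No detection calls were used.

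Of 22283 probe sets, 68 controls and 54 of Y-linked and X-inactivation genes were left out. The platform annotation gave 19065 probe sets 1 symbol, 1043 several and 2107 none, and 9 that pair a member's symbol with others were not used. The brightest probe set stood for a gene. Tests used log2(signal + 197), where 197 is the table's 25th percentile, so changes of dim genes are understated, and required a mean at or above the 40th percentile. The test was limma 3.58.1 (lmFit, eBayes with trend, two-sided, R 4.3.3). The fit was run on simulated data in which arrays varied independently. These held no laboratory series or chip lots, so the check does not cover such structure. ± is an SE.

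Members and lists were chosen with earlier results of these data known. Named genes were all called members, the 3 brightest and the extremes of each complex, SDH genes, paralogous subunits, and up to 3 called genes per direction of each other list; further members were named to complete a subcomplex. The labels do not say that a shared number marks a shared culture, so numbers were not treated as pairs. Same-numbered arrays deviated together at r = 0.255, -0.172 and 0.371 and other pairs at -0.434 to 0.408, which does not settle the pairing. The number of arrays limits the precision.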

Additional observations from a re-analysis of the deposited data

How the results depend on the processing

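Over 21 other settings the median change of the members stayed below 0, from -0.309 to -0.081, and 41 of the 70 genes kept their direction in all of them. The count of members lower in myotubes, 7, was 3 with eBayes without trend, 1 with chip lot as a random block, 1 with myoblast arrays 2 and 3 averaged, 2 with a 2-fold minimum and 0 both with the laboratory series as a block and in the first series alone, where the single myoblast array is taken to vary as the myotubes do. On leaving out 1 array it ranged from 1 to 13. The count higher, 0, was 1 after quantile normalization (NDUFA13) and 0 to 5 on leaving out 1 array. With the replicate block 12 were lower and 2 higher, and 1631 genes in all were called, 842 lower and 789 higher. The labels do not say that a shared number marks a shared culture. The count over all genes, 1042, was 312 with chip lot, 409 with myoblast arrays 2 and 3 averaged, 263 with the series block, 127 in the first series alone, and 403 to 2314 on leaving out 1 array. The cause of these shifts was not tested.

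The direction of 29 of the 70 genes turned in at least 1 setting. In both series fits the changes were -0.358 for NDUFS7, -0.472 for COX6A1, -0.131 for COX6B1, -0.131 for NDUFB2, 0.045 for NDUFB4, 0.027 for SDHD and 0.092 for UQCRB. After quantile normalization ATP5MC2 was 0.015 and NDUFB4 0.092, with 75th percentile scaling COX7A2L was -0.039, and averaging a gene's probe sets put SDHC at -0.018. On leaving out 1 array, values spanned 0 for ATP5MC2 (-0.363 to 0.067), SDHA (-0.257 to 0.127), NDUFB4 (-0.095 to 0.067), UQCRB (-0.4 to 0.038) and COX7A2L (-0.024 to 0.054), and NDUFA3 was 0.399 without myotube array 2. The cause was not tested. Signals near the unspiked controls, as for COX6A2 and COX7A1, limit what can be said of the muscle forms.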
